A study of Arabidopsis thaliana with 12 samples.

Results

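The plastid genome keeps a small set of genes of its own, and their transcripts were followed here in Arabidopsis root tips, a tissue whose plastids are mostly not green. Members were the rows of the expression table whose gene ID begins with ATCG and whose mean over all 12 libraries was at least 1 normalized count, a count of reads per gene divided by 1 size factor per library. This rule took 83 of 133 plastid rows, out of 32833 rows in all. It used the mean over all libraries and no difference between groups. Of the other plastid rows, 29 held reads at a mean under 1, and 21 held no read in any library.

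RNA was sequenced from 4 groups of 3 libraries each, namely ago10-1 after BAP, Col-0 after BAP, ago10-1 without BAP and Col-0 without BAP. BAP is 6-benzylaminopurine, a synthetic cytokinin, Col-0 is the wild type, and ago10-1 carries a T-DNA insertion in ARGONAUTE10 (AGO10), which encodes a protein that binds small RNAs, in otherwise Col-0 plants. Seedlings received a spray of 1 µM BAP or no treatment 6 days after germination, and tips were harvested after 2 h. The untreated plants are called mock in the labels and below. The methods place the cut 1 to 3 mm above the tip, whereas the labels speak of 50 mg of tips of 1 mm. A pair of Col-0 mock libraries share 1 heading and are called library A and library B, since their replicate number is not certain.

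Plastid genes encode subunits of the photosynthetic complexes and the ATP synthase, ribosomal proteins, RNAs of the plastid ribosome, and core subunits of a bacterial type RNA polymerase. A second polymerase and the sigma factors that guide the first are encoded in the nucleus, as are most plastid proteins. Non-green plastids such as the starch-filled amyloplasts of the root cap carry the same genome, and cytokinin is known as a promoter of greening.

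Of the 83 members, 7 could be named from the sources used here, and the rest are given by ID with no role. The named members included ATCG00480 (atpB) and ATCG00470 (atpE), the beta and epsilon subunits of the ATP synthase. ATCG00660 (rpl20) and ATCG01310 (rpl2) encode ribosomal proteins. ATCG00670 (clpP) encodes the proteolytic subunit of the Clp protease, and ATCG00530 (cemA) an envelope membrane protein. For ATCG00430 a RefSeq note gives only the description photosystem II reaction center protein G. No RefSeq gene was paired with that description, so its role is not taken as known. In the TAIR10.1 plastid chromosome of RefSeq, both ATP synthase genes lie on the minus strand, atpB from 52660 to 54156 and atpE from 52265 to 52663. Each is a single coding exon, of 1497 and 399 bases.

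The coding sequences of atpB and atpE share 4 bases, so a read across their border overlaps both genes. How the counting treated such reads is not given in the sources used here. The stretch is shown because, of the 30 members tested, these were the ones that limma or DESeq2 called in a comparison of the groups with all libraries. It covers the end of atpB and the start of atpE on the coding strand, Pltd:52633-52690 of TAIR10.1, and the capitals mark the shared bases, which hold the start codon of atpE.
atpB/atpE border: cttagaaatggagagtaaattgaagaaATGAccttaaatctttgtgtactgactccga
The coding sequence of atpB also holds a run of 10 A. The longest runs in the other placed genes were 7 in rpl20 and rpl2, 6 in cemA, and 4 in atpE and clpP. A link of these runs to the levels was not tested. The selection of RNA for these libraries, by poly(A) or otherwise, is not given in the sources used here. The run in atpB is shown with its surroundings (Pltd:54076-54135, minus strand, run in capitals).
atpB run of A: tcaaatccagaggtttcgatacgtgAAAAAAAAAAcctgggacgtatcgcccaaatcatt

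Each library held between 19394256 and 34899796 reads on genes, and the 4 libraries labelled replicate 1 were the shallowest of their groups. AGO10 (AT5G43810) lay between 130.4 and 187.2 normalized counts in the 6 ago10-1 libraries, against 568.1 to 1051 in the 6 Col-0 libraries. All 5 root tip markers (PLT1, PLT2, WOX5, SCR and SHR) were measured in every group, with a summed level of 2905 to 4056 normalized counts. The 3 root cap markers (SMB, BRN1 and BRN2) summed to 594 in ago10-1 mock replicate 2 and to between 988.3 and 1746 in the other libraries. The root hair marker COBL9 ranged from 1608, also in ago10-1 mock replicate 2, to 3383. A link of these sums to the plastid levels was not tested. The 17 markers of green shoot tissue summed to between 616.4 and 3262, and 6 of them had a mean under 10. In whole tips, more cells of a type and more RNA per cell cannot be told apart.

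Plastid genes took a small part of the reads on genes in these libraries. RNA selection is not given in the sources used here, so the part of plastid RNA in the tips was not measured. Of the reads on genes, 0.0220%, 0.0320% and 0.0301% fell on the 83 members in ago10-1 BAP replicates 1, 2 and 3. In Col-0 BAP the share was 0.0182%, 0.0298% and 0.0272% in replicates 1, 2 and 3. In ago10-1 mock it was 0.0255%, 0.0325% and 0.0265%, in the same order. In Col-0 mock it was 0.0230% in replicate 1, 0.0221% in library A and 0.0269% in library B. Replicate 1 was the lowest library in every group but Col-0 mock, and all 4 groups overlapped.

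**Figure D1:**
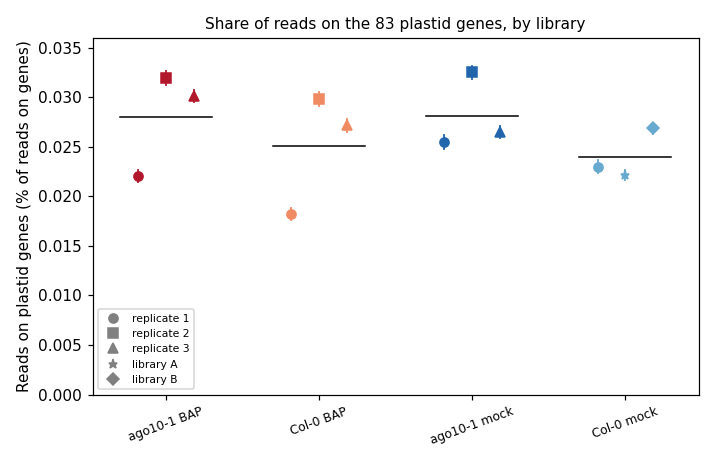
Share of reads on the 83 plastid genes in percent of all reads on genes, for each library of the 4 groups. Symbols give the replicate, vertical lines the 95% Wilson interval (counting error only) and horizontal lines the group mean. Replicate 1 lies at 0.0220% in ago10-1 BAP and 0.0182% in Col-0 BAP, below the other libraries of those groups.

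These shares rest on 3534 to 10286 plastid reads per library. The widest 95% Wilson interval, in Col-0 BAP replicate 2, ran from 0.0291% to 0.0305%. Within the groups, intervals overlapped between ago10-1 mock replicates 1 and 3 and between Col-0 mock replicate 1 and library A, and not between the other libraries. Intervals of this kind cover counting error only, because reads are not independent molecules. The group means were 0.0280% ± 0.0053 in ago10-1 BAP, 0.0251% ± 0.0061 in Col-0 BAP, 0.0282% ± 0.0038 in ago10-1 mock and 0.0240% ± 0.0025 in Col-0 mock (SD, n = 3 each). Within equal replicate numbers after BAP, ago10-1 held the higher share in replicates 1, 2 and 3, as the values above show. For BAP against mock in ago10-1, replicates 1 and 2 were lower after BAP and replicate 3 was higher.

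The summed level of the members in normalized counts gave the same picture. It was 7146 ± 1260 in ago10-1 BAP, 6462 ± 1440 in Col-0 BAP, 6997 ± 999 in ago10-1 mock and 6074 ± 724 in Col-0 mock (SD, n = 3 each). The log2 ratio of the group means was 0.03 for BAP against mock in ago10-1 and 0.09 in Col-0. For ago10-1 against Col-0 it was 0.14 after BAP and 0.20 without BAP. Each of these differences was smaller than the larger SD of its groups. The widest of them, between ago10-1 and Col-0 without BAP, was 922 normalized counts beside SDs of 999 and 724.

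The mitochondrial genome, the other genome outside the nucleus, gave a higher share from fewer genes. Its 42 rows with a mean of at least 1 took 0.0514% to 0.169% of the reads on genes. Replicate 1 was the highest library there in ago10-1 BAP (0.158%), Col-0 BAP (0.169%), ago10-1 mock (0.118%) and Col-0 mock (0.0939%). Its plastid share was the lowest in 3 of these groups, so the shares from the organelle genomes did not move together across the libraries.

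Among the plastid genes the reads were concentrated on a few. ATCG01130 alone took 25% of all plastid reads, and the 10 consecutive IDs from ATCG00740 to ATCG00830 took 61.6%. Together these 11 members held 86.5%, which left 13.5% for the other 72. The median member had a mean of 6.5 normalized counts, 10 members reached 100, and 53 members, with 3.35% of the plastid reads, stayed below 10.

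**Figure D2:**
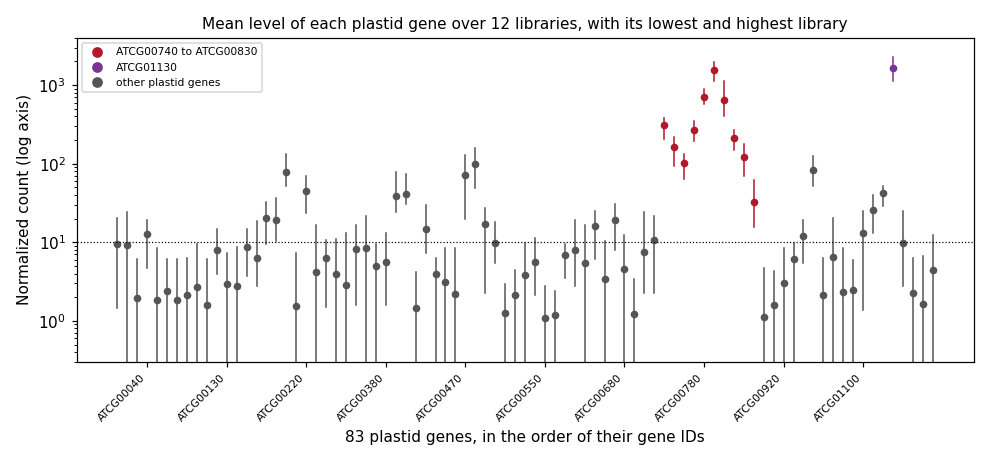
Mean normalized count of each of the 83 plastid genes over 12 libraries (points, log axis), in the order of their gene IDs. Lines run from the lowest to the highest library and end at the lower edge where a library held no read, and the dotted line marks a mean of 10. ATCG00740 to ATCG00830 form a peak around ATCG00790 with a mean of 1542, and ATCG01130 reaches 1661.

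ATCG01130 had a mean of 1661 normalized counts and stood at position 3518 of all 32833 genes by mean. It measured 1210, 2103 and 2007 in ago10-1 BAP, 1150, 1979 and 1788 in Col-0 BAP, 1519, 2299 and 1744 in ago10-1 mock, each in replicates 1, 2 and 3, and 1380, 1118 and 1632 in Col-0 mock replicate 1, library A and library B. Its lowest libraries were Col-0 mock library A and the replicate 1 libraries after BAP, and the groups overlapped. ATCG00790 followed with a mean of 1542, at position 3780. It measured 1370, 1647 and 1770 in ago10-1 BAP, 1122, 1659 and 1547 in Col-0 BAP, 1533, 1948 and 1612 in ago10-1 mock, and 1345, 1432 and 1521 in Col-0 mock, in the same order. Without BAP every ago10-1 library lay above every Col-0 library for ATCG00790, by 12 normalized counts at the narrowest point. High means were also found for ATCG00780 (mean 701), ATCG00800 (650), ATCG00740 (313), ATCG00770 (270), ATCG00810 (211), ATCG00820 (122) and ATCG00760 (102).

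**Figure D3:**
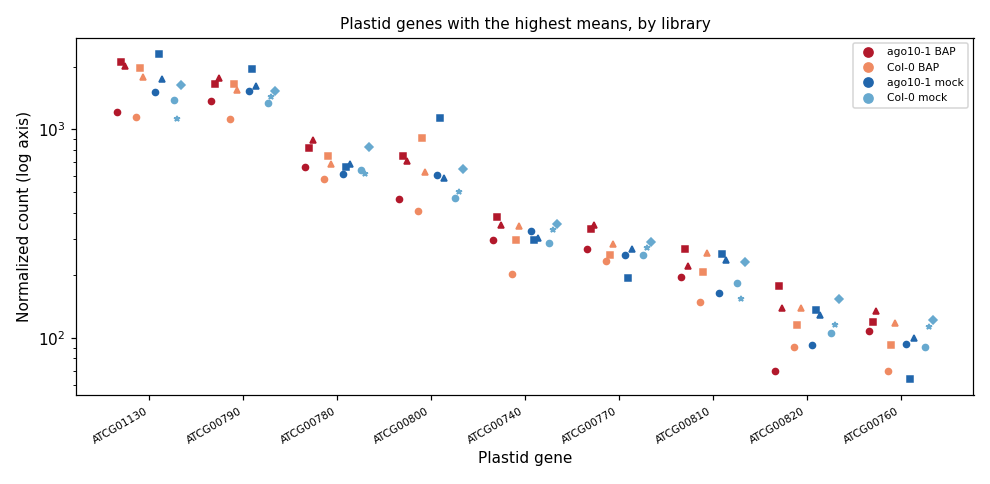
Normalized counts (log axis) of 9 plastid genes with high means, with 1 point per library, coloured by group. Circles are replicate 1, squares replicate 2, triangles replicate 3, and for Col-0 mock the star is library A and the diamond library B. The groups overlap for each gene except ATCG00790 without BAP and ATCG00770 and ATCG00760 in ago10-1, and ATCG00800 reaches 1129 in ago10-1 mock replicate 2.

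rpl2 (ATCG01310) lies in the inverted repeat, a stretch of 26264 bases that the plastid genome holds in a pair of identical copies, from 84171 to 110434 and from 128215 to 154478. RefSeq holds rpl2 at a pair of places, 84337 to 85843 and 152806 to 154312, and only the row ATCG01310 could be paired with the name. This row averaged 4.38 normalized counts and lacked reads in 2 libraries. Whether another ID stands for the other copy was not tested.

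Every window of 50 or of 100 bases in rpl2 occurs more than once in the reference, as do 35.4% of all windows of 50 bases in the plastid genome. How the counting treated reads that map equally well to several places is not given in the sources used here, so the level of rpl2 is uncertain.

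Among the plastid rows of the table that are no members, those without any read were mostly found in a pair of ID ranges, with 9 of 17 plastid IDs from ATCG00840 to ATCG00990 and 11 of 17 from ATCG01140 to ATCG01300 at 0 in every library. Where these IDs lie in the plastid genome was not tested. A count of 0 in the shallowest library allows up to 1.55e-05% of its reads on genes. Only 1 other plastid row, ATCG00570, was without reads.

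Per kilobase of coding sequence, atpE stood at 182 ± 90.3 normalized counts (SD over 12 libraries). atpB followed at 66.3 ± 22.4 and clpP at 32.5 ± 12. rpl20 (9.60 ± 8.55), cemA (5.64 ± 4.76) and rpl2, by the row ATCG01310 alone (5.31 ± 4.30), were lower, and their ranges overlapped from 0 upward. The range of atpE over the libraries (50.1 to 325 per kilobase) overlapped that of atpB (33.1 to 107). Within each library atpE was the higher per kilobase, as the ratio of counts was at least 0.358 for coding lengths of 399 and 1497 bases.

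Levels just inside the limit for members were 1.09 for ATCG00550, 1.1 for ATCG00900 and 1.2 for ATCG00580, and just outside 0.95 for both ATCG01060 and ATCG01230 and 0.67 for ATCG00410. Such genes rest on 10 to 15 reads over all 12 libraries. Of the 83 members, 43 had reads in every library. Between 5 and 23 members lacked reads in a single library, the most in Col-0 BAP replicate 1, the shallowest one.

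The makeup of the plastid reads was similar in the means of the 4 groups. The run ATCG00740 to ATCG00830 took 61.3% ± 1.95 of the plastid reads in ago10-1 BAP, 60.4% ± 1.5 in Col-0 BAP, 61.0% ± 1.57 in ago10-1 mock and 64.3% ± 1.55 in Col-0 mock (SD, n = 3 each). ATCG01130 took 24.5% ± 2.84, 25.2% ± 1.24, 26.3% ± 1.95 and 22.6% ± 2.50 of them in the same order of groups. The Col-0 mock libraries, with 63.4%, 66.1% and 63.5%, were the highest for the run, and ago10-1 BAP replicate 1 came next with 63.3%. Library A of Col-0 mock had the lowest share for ATCG01130, at 19.8%.

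Within the run the genes did not keep 1 ratio. ATCG00800 measured 465, 744 and 707 normalized counts in ago10-1 BAP, 407, 911 and 625 in Col-0 BAP, 604, 1129 and 585 in ago10-1 mock, each in replicates 1, 2 and 3, and 470, 501 and 645 in Col-0 mock replicate 1, library A and library B. The ratio of ATCG00800 to ATCG00740 was 3.83 in ago10-1 mock replicate 2 and 3.07 in Col-0 BAP replicate 2. In the other 10 libraries it lay between 1.52 and 2.03, so a pair of libraries labelled replicate 2 stood apart, 1 from each genotype.

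Replicate libraries varied by more than counting alone would give. The variance between libraries of a group, divided by that expected from counting, had a median of 4.38 over the 30 members with a mean of at least 10, and exceeded 2 in 27 of them. It was 96.9 for ATCG01130 and 72.2 for ATCG00800, and 1.26 for ATCG00040. For the 53 members below a mean of 10 the median was 2.52. Of the 30, replicate 1 was the lowest library for 22 in ago10-1 BAP, 23 in Col-0 BAP, 11 in ago10-1 mock and 15 in Col-0 mock, where over all genes tested the share was 38.5%, 44.1%, 39.1% and 34.7%.

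Differences between groups were tested with limma on log2 of the normalized count plus 1, after a filter at a mean of 10 that left 19206 genes, of which 30 were members. Genes with an unadjusted p under 0.01, the threshold of the study, are called. The other 53 members did not pass this filter, and with the filter at a mean of 1 all 83 entered the fit.

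No plastid transcript passed the test for BAP in ago10-1. limma called none of the 30 in ago10-1 BAP against ago10-1 mock, against 0.568% of all genes, and neither did edgeR (0.63% of all genes) or DESeq2 (1.49%). At an unadjusted p under 0.05, where limma found 4.13% of all genes, there was again no member, and the smallest p was 0.0552. The log2 fold change was positive for 19 members and negative for 11, with a median of 0.12 (0.01 over all genes tested). A fit with a term for the replicate number called 979 genes, or 5.1% of those tested, and again no member. In that fit 2 members reached an unadjusted p under 0.05, and the share of all genes at that level is not given here.

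ATCG00770 and ATCG00760 were the members whose libraries did not overlap in this comparison, against 9.2% of all genes. ATCG00770 measured 269, 333 and 348 normalized counts in ago10-1 BAP and 251, 195 and 266 in ago10-1 mock (log2 fold change 0.42, standard error 0.18, limma adjusted p = 0.908). ATCG00760 measured 108, 120 and 135 in ago10-1 BAP and 94.2, 64.0 and 99.97 in ago10-1 mock (log2 fold change 0.51, standard error 0.24, limma adjusted p = 0.908). In both genes the gap between the groups was narrow, and ago10-1 mock replicate 2 was the lowest library.

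The largest positive values in ago10-1 were 0.60 for ATCG00650, 0.57 for ATCG00180 and 0.55 for ATCG01020. The largest negative ones were -1.30 for ATCG00490, -0.71 for ATCG00730 and -0.28 for ATCG00170. The groups overlapped for these 6 genes. ATCG00490 measured 2.25, 27.1 and 5.32 normalized counts in ago10-1 BAP, against 22.0, 20.54 and 16.4 in ago10-1 mock, so replicate 2 went the other way. With single libraries left out, its log2 fold change ranged from -2.18 (without ago10-1 BAP replicate 2) to -0.62 (without ago10-1 BAP replicate 1). That of ATCG00650 ranged from 0.20 (without ago10-1 mock replicate 1) to 0.97 (without ago10-1 mock replicate 2).

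In Col-0 the values for BAP centred on 0 as well, and atpE and atpB had the largest positive ones. The median log2 fold change was -0.03 (0.01 over all genes tested), with 13 positive and 17 negative members. No member was called by limma (0.151% of all genes) or edgeR (0.13%). In limma 1 member, atpB, reached an unadjusted p under 0.05, against 1.18% of all genes. DESeq2 called atpB, where it called 0.385% of all genes.

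atpB measured 111, 160 and 96.7 normalized counts in Col-0 BAP replicates 1, 2 and 3, against 50.8, 49.6 and 75.9 in Col-0 mock replicate 1, library A and library B. Every library after BAP was higher, and the lowest of them was 1.27 times the highest mock library. The log2 fold change was 1.04 with a standard error of 0.31 (95% interval 0.31 to 1.77, unadjusted p = 0.0121 and adjusted p = 1 from limma). atpE measured 39.7, 126 and 70.1 in Col-0 BAP, against 39.0, 20 and 44.2 in Col-0 mock. Replicate 1 after BAP lay inside the mock range, and the log2 fold change of 1.09 had a standard error of 0.52 (limma adjusted p = 1).

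**Figure D4:**
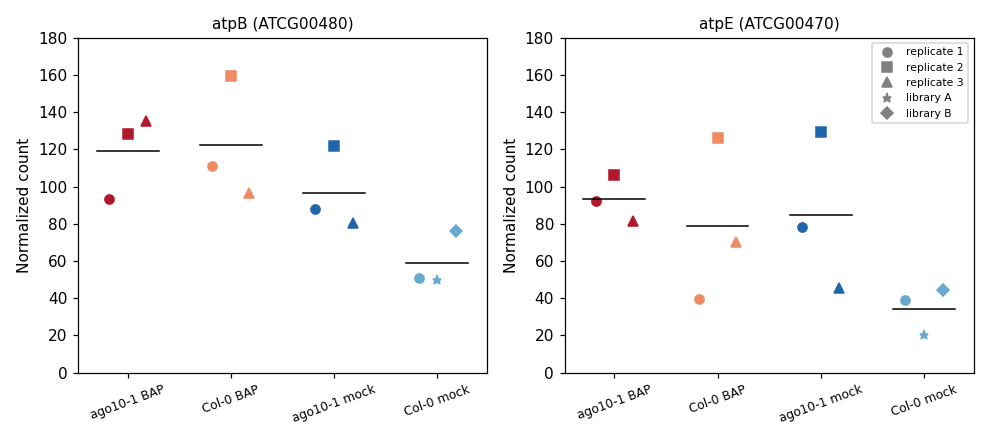
Normalized counts of atpB (left) and atpE (right) for each library of the 4 groups, with symbols for the replicate and horizontal lines for the group mean. The Col-0 mock libraries, at 49.6 to 75.9 for atpB, lie below all 9 others, whereas for atpE 1 Col-0 BAP library, at 39.7, lies among them.

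The members without overlap in Col-0 were atpB, ATCG01020 and ATCG00170, against 5.25% of all genes. ATCG01020 measured 73.9, 84.6 and 87.1 normalized counts in Col-0 BAP, against 62.6, 68.7 and 63.4 in Col-0 mock (log2 fold change 0.33, standard error 0.23, limma adjusted p = 1). ATCG00170 measured 9.58, 20.3 and 15.9 in Col-0 BAP, against 23.6, 25.2 and 30.2 in Col-0 mock (log2 fold change -0.80, standard error 0.43, limma adjusted p = 1). After atpE and atpB, the largest positive value was 0.40 for ATCG00040, and the largest negative ones were -1.07 for ATCG01100 and -0.99 for ATCG00730, with overlapping groups. ATCG01100 ranged from -1.76 (without Col-0 BAP replicate 3) to -0.34 (without Col-0 BAP replicate 1) over single libraries left out, and ATCG00730 from -1.65 (without Col-0 BAP replicate 3) to -0.54 (without Col-0 BAP replicate 2).

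**Figure D5:**
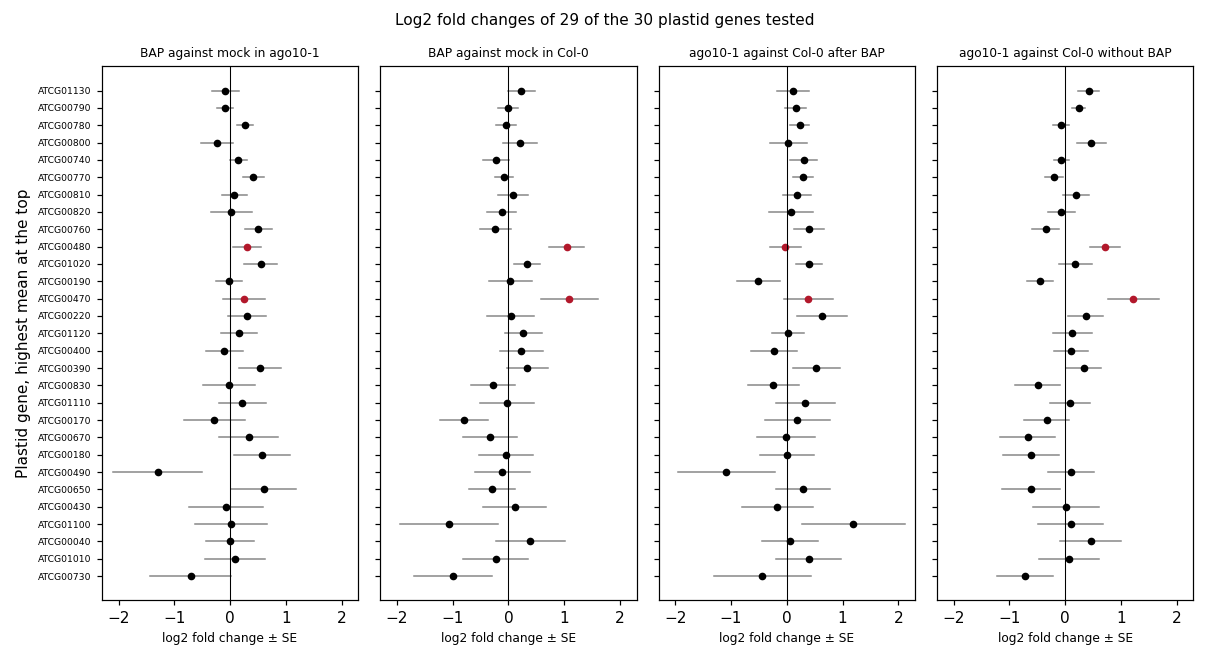
Log2 fold changes (points) with standard errors (lines) of 29 of the 30 plastid genes tested, in 4 comparisons, with the gene of highest mean at the top and atpE and atpB in red. Both stand to the right in BAP against mock in Col-0 (1.09 and 1.04) and in ago10-1 against Col-0 without BAP (1.22 and 0.71), and the lines grow longer toward the genes of low mean.

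Between the genotypes without BAP, no member was called by limma (0.437% of all genes) or edgeR (0.411%). In limma 2 members, atpE and atpB, reached an unadjusted p under 0.05, against 2.08% of all genes. DESeq2 called atpE, where it called 0.63% of all genes. The median log2 fold change was 0.08 (0.01 over all genes tested), with 17 positive and 13 negative members. The comparisons of single groups in which atpB and atpE had their largest values share the Col-0 mock libraries.

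atpB measured 88.1, 122 and 80.1 normalized counts in ago10-1 mock, against 50.8, 49.6 and 75.9 in Col-0 mock (log2 fold change 0.71, standard error 0.28, limma adjusted p = 0.999). atpE measured 78.3, 130 and 45.7 in ago10-1 mock, against 39.0, 20 and 44.2 in Col-0 mock (log2 fold change 1.22, standard error 0.46, limma adjusted p = 0.999). The groups did not overlap for either gene, by 4.2 normalized counts for atpB and 1.4 for atpE. The libraries that lay closest were ago10-1 mock replicate 3 and Col-0 mock library B in both cases.

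ATCG00790, ATCG00730 and ATCG00190 were the other members without overlap, against 6.96% of all genes. ATCG00190 measured 66.1, 70.3 and 56.9 normalized counts in ago10-1 mock, against 72.1, 108 and 88.5 in Col-0 mock (log2 fold change -0.45, standard error 0.24, limma adjusted p = 0.999). ATCG00730 measured 11.01, 5.53 and 12.9 in ago10-1 mock, against 13.0, 14.8 and 21.4 in Col-0 mock, where 12.9 and 13.0 all but touched. Its log2 fold change of -0.73 was followed by -0.68 for clpP and -0.62 for ATCG00180, whose groups overlapped. On the positive side ATCG00800 came after atpE and atpB, at 0.46 with overlap.

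After BAP the genotypes were closer for the ATP synthase genes. atpB measured 93.3, 128 and 135 normalized counts in ago10-1 BAP, against 111, 160 and 96.7 in Col-0 BAP, with a log2 fold change of -0.03 (95% interval -0.70 to 0.65). atpE measured 92.1, 106 and 81.4 in ago10-1 BAP, against 39.7, 126 and 70.1 in Col-0 BAP, with a log2 fold change of 0.39 (95% interval -0.66 to 1.43). The groups overlapped for both, and the intervals include differences as large as those of the mock libraries for atpE.

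No member was called after BAP by limma (0.13% of all genes), edgeR (0.146%) or DESeq2 (0.266%). None reached an unadjusted p under 0.05 in limma, against 0.578% of all genes. Positive values stood at 22 members and negative ones at 8, with a median of 0.17 (0.01 over all genes tested). ATCG01020, at 126, 95.9 and 103 normalized counts in ago10-1 BAP against 73.9, 84.6 and 87.1 in Col-0 BAP, was the 1 member without overlap, against 3.59% of all genes. ATCG01100 (1.19), ATCG00220 (0.63) and ATCG00390 (0.53) had the largest positive log2 fold changes, and ATCG00490 (-1.08), ATCG00190 (-0.51) and ATCG00730 (-0.44) the largest negative ones. Single libraries moved these values. ATCG01100 ranged from 0.46 (without Col-0 BAP replicate 1) to 1.88 (without Col-0 BAP replicate 3), ATCG00390 from 0.24 (without ago10-1 BAP replicate 3) to 0.78 (without ago10-1 BAP replicate 1) and ATCG00490 from -1.96 (without ago10-1 BAP replicate 2) to -0.41 (without ago10-1 BAP replicate 1). The median of the 30 members lay between -0.02, without Col-0 BAP replicate 1, and 0.29, without ago10-1 BAP replicate 1.

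Over all 12 libraries, with genotype as a term, atpB was the 1 member called for BAP against mock, against 1.48% of all genes. It rose after BAP with a log2 fold change of 0.67 (standard error 0.21, unadjusted p = 0.00845 and adjusted p = 0.649 from limma). Leaving out single libraries ended this call in 10 of 12 cases, with unadjusted p between 0.0101 and 0.0222 from limma. The call was kept without ago10-1 BAP replicate 1 and without ago10-1 mock replicate 2. edgeR, which called 1.56% of all genes, gave an unadjusted p of 0.0106. DESeq2 called atpB too, among 2.85% of all genes. Without the 4 libraries labelled replicate 1 the log2 fold change was 0.71 and the call was lost as well (unadjusted p = 0.019). atpE had nearly the same value, 0.67, with a larger standard error of 0.34, and was not called. The 2 members with an unadjusted p under 0.05 in limma, against 6.31% of all genes, were atpB and ATCG01020 (log2 fold change 0.44, standard error 0.17).

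For ago10-1 against Col-0 over both treatments no member was called by limma (0.802% of all genes), edgeR (0.786%) or DESeq2 (1.18%). An unadjusted p under 0.05 in limma, found for 3.09% of all genes, was reached by 2 members, atpE (log2 fold change 0.81, standard error 0.34) and ATCG00190 (-0.48, standard error 0.21). The difference of the BAP response between the genotypes called no member in limma (0.0208% of all genes), edgeR (0.026%) or DESeq2 (0.0677%). None reached an unadjusted p under 0.05 in limma, against 0.463% of all genes. For atpB that difference was -0.74 (standard error 0.39, 95% interval -1.60 to 0.12) and for atpE -0.84 (standard error 0.68, 95% interval -2.32 to 0.65). The higher BAP value of both genes in Col-0 was therefore not shown to differ from that in ago10-1.

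atpE and atpB did not move in a fixed ratio. The ratio of atpE to atpB in normalized counts was 0.988, 0.829 and 0.601 in ago10-1 BAP, 0.358, 0.791 and 0.725 in Col-0 BAP, 0.889, 1.06 and 0.570 in ago10-1 mock, and 0.767, 0.404 and 0.583 in Col-0 mock. Replicate 1 held both the lowest ratio, in Col-0 BAP, and the second highest, in ago10-1 BAP.

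The 53 members below the filter, as a sum, showed no separation of groups. Their summed level was 198.9 to 297.1 normalized counts in ago10-1 BAP, 117.7 to 293 in Col-0 BAP, 214.6 to 236.2 in ago10-1 mock and 150.1 to 242.6 in Col-0 mock. When they entered the fit, limma called none of them in any of the 7 comparisons. The share of all genes called there ran from 0.104% (interaction) to 1.45% (BAP over both genotypes), so this absence does not set the members apart. With no filter at all, ATCG00210, which rests on 19 reads, was called between the genotypes without BAP, against 0.72% of all genes. Of the named genes among them, cemA had reads in 9 libraries, rpl20 in 9 and rpl2 in 10, with highest values of 9.79, 10.3 and 12.2.

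No nucleus-encoded gene for plastid transcription or plastid ribosomal proteins was called. Of 21 genes for plastid transcription, which include the polymerase RPOTp, the sigma factors and proteins bound to the bacterial type polymerase, 20 were tested and none was called in any of the 7 comparisons by limma, edgeR or DESeq2, with 1 unadjusted p under 0.05 over all of them in limma. That gene was PTAC10, with a log2 fold change of -0.45 for BAP in ago10-1 (standard error 0.16, unadjusted p = 0.0249 and adjusted p = 0.908 from limma). The log2 fold change for BAP was positive for 7 of the 20 in ago10-1 and 5 in Col-0, against 52.1% and 51.9% of all genes. Of 10 nucleus-encoded plastid ribosomal protein genes, 9 were tested and none was called by any of the 3 tools or reached an unadjusted p under 0.05 in limma, with medians for BAP of -0.16 in ago10-1 and -0.08 in Col-0. The log2 fold change for BAP was positive for 0 of the 9 in ago10-1 and 1 in Col-0. For ago10-1 against Col-0 it was positive for 8 of the 9 without BAP and 5 after BAP, against 51.4% and 53.3% of all genes. PRPS1 (-0.21) and PRPL4 (-0.16) had the smallest p over both genotypes.

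Of 12 genes for plastid RNA processing, 10 were tested. Over both genotypes 2 were called as higher after BAP by limma (1.48% of all genes called) and DESeq2 (2.85%), but none by edgeR (1.56%). HCF107, which protects and processes transcripts of the photosystem II gene psbH, stood at a log2 fold change of 0.47 (standard error 0.15, limma adjusted p = 0.649). MRL1, which stabilises the transcript of the large Rubisco subunit, had 0.92 (standard error 0.29, limma adjusted p = 0.651). In Col-0 the groups overlapped for both genes. Col-0 mock library A measured 334 normalized counts for HCF107 and 57.4 for MRL1, inside the Col-0 BAP ranges of 325.1 to 345.5 and 45.2 to 91.4. In ago10-1 the groups did not overlap for either gene, against 9.2% of all genes. The list also holds OTP43, a protein of mitochondrial RNA splicing, which was not called.

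Most nucleus-encoded photosynthesis genes had positive values for BAP. Of 24 tested, out of 32, the log2 fold change was positive for 23 in ago10-1 and 21 in Col-0, with medians of 0.43 and 0.30, against 0.12 and -0.03 for the 30 plastid genes and 0.01 for all genes. None was called in either genotype by limma, edgeR or DESeq2, and an unadjusted p under 0.05 in limma was reached by 3 in ago10-1 and 1 in Col-0. In Col-0 the 32 genes summed to 7900, 3051 and 1885 normalized counts in BAP replicates 1, 2 and 3. The mock sums were 3416, 3922 and 1602 in replicate 1, library A and library B, so only BAP replicate 1 lay above them. In ago10-1 the sums were 5683, 3021 and 4192 after BAP and 3583, 3470 and 2271 in mock. Over both genotypes PETE1, a plastocyanin, had a lower value after BAP (log2 fold change -1.13, standard error 0.33, limma adjusted p = 0.581). It was called by limma (1.48% of all genes called), edgeR (1.56%) and DESeq2 (2.85%). LHCB3 (0.95) and LHCB1.2 (1.43), of the light-harvesting complex, followed by p and were not called in limma. LHCB1.2 was also called by edgeR (log2 fold change 1.94, unadjusted p = 0.00998) and DESeq2 (1.94), and LHCB3 by DESeq2 (1.08). In Col-0, LHCB1.2 measured 120.5, 15.49 and 12.75 normalized counts in BAP replicates 1, 2 and 3, against 18.9, 7.83 and 7.37 in mock. LHCB3 measured 209, 75.05 and 51.0 there, against 68.5, 62.6 and 31.0 in mock, so the Col-0 groups overlapped for both genes. Of the 32 genes, 17 are also the markers of green shoot tissue, so the list and the markers are not independent.

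The libraries with the most nuclear photosynthesis transcripts were not those with the most plastid reads. Col-0 BAP replicate 1 had the highest summed level of the 32 genes, 7900 normalized counts, the highest green shoot marker sum, 3262, and the lowest plastid share, 0.0182%. ago10-1 BAP replicate 1 came next, with 5683, 1942 and 0.0220%. The highest plastid share, 0.0325% in ago10-1 mock replicate 2, stood beside sums of 3470 and 1247. The part of green tissue in these values was not tested.

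Of 10 regulators of greening and chlorophyll synthesis, 6 were tested. CHLH, a subunit of the magnesium chelatase of chlorophyll synthesis, was called as higher after BAP in ago10-1 by limma, against 0.568% of all genes. Its log2 fold change was 0.66 (standard error 0.18, unadjusted p = 0.00709 and adjusted p = 0.908 from limma). Over both genotypes, where 1.48% of all genes were called, it was 0.62 (standard error 0.17, unadjusted p = 0.00403 and adjusted p = 0.581 from limma). CHLH measured 1117, 794 and 1200 normalized counts in ago10-1 BAP, against 582, 635 and 729 in ago10-1 mock. The groups did not overlap, against 9.2% of all genes. In Col-0 it measured 1218, 946 and 778 after BAP, against 629, 934 and 460 in mock, which overlapped. GLK2 (0.26) and GUN4 (0.25) came next by p over both genotypes and were not called.

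The 20 mitochondrial genes tested served as a second set of organelle transcripts. None was called by limma, edgeR or DESeq2 in any of the 7 comparisons, with 3 unadjusted p under 0.05 over all of them in limma. Their median log2 fold change was 0.09 for BAP in ago10-1 and -0.11 in Col-0, and for ago10-1 against Col-0 it was 0.06 after BAP and -0.15 without BAP. The plastid medians for the same comparisons were 0.12, -0.03, 0.17 and 0.08.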

How the data were processed

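RNA of root tips was sequenced in 12 libraries. For the deposited table, the authors mapped reads with STAR, tallied them by gene model (TAIR10) in featureCounts and scaled them in DESeq2. Versions, read length, strandedness and RNA selection are not given in the sources used here. The deposited signal is a normalized count, reads divided by the size factor of the library. Whole reads could be recovered from 100% of values (tolerance 1e-04). Each comparison was fitted with limma 3.58.1 (R 4.3.3, trend, two-sided) on log2 normalized counts with a pseudocount of 1 and Benjamini-Hochberg adjustment over 19206 genes. Code was tested on simulated data.

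Alternatives changed the pseudocount, the filter and the libraries, used edgeR 4.0.16 or DESeq2 1.42.0 on the recovered reads, or added a replicate block. Members, gene lists and the rule for named genes (members called, the highest levels, those at the limit, the 3 largest changes each way per comparison, and called or leading genes of each list) were chosen with earlier results of these data known. Plastid IDs were named only where the study's dataset (2 IDs) or RefSeq notes (5 IDs) pair them with a gene. Whether samples of equal number deviate together was checked over 12 pairs, and the correlation of their deviations from the group means was 0.252 to 0.777, so the numbers were taken as pairing the samples. Pairs of unequal number were not part of this check. The main fits hold no term for the number, and the replicate block was run only as an alternative. Fits with Col-0 mock could only set replicate 1 against the others, as library A and library B have no certain number. The labels call the libraries biological replicates and do not say whether these came from separate plants or days, so p-values measure the spread between these samples. The values of 1 plastid gene are not reported here by themselves, and it stays in the sums and counts.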

Additional observations from a re-analysis of the deposited data

How the results depend on the processing

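The calls of plastid genes were few and depended on single settings. For BAP against mock over both genotypes, the 1 call became 0 with no filter, with edgeR and without the libraries labelled replicate 1 (a setting chosen after seeing the data), and ranged from 0 to 2 when single libraries were left out, where the second gene was ATCG01020. For ago10-1 against Col-0 without BAP, 0 calls became 1 with no filter (ATCG00210, with 19 reads in all, 0.72% of all genes called). The count was also 1 with DESeq2 (atpE, 0.63% of all genes) and ranged from 0 to 1 over single libraries left out. DESeq2 gave 1 call for BAP in Col-0. Over both treatments, ago10-1 against Col-0 had 0 to 1 calls over single libraries left out (ATCG00190 without Col-0 BAP replicate 1, atpE without Col-0 BAP replicate 2), and 1 without the libraries labelled replicate 1 (ATCG00190). The median log2 fold change of the plastid genes also moved when single libraries were left out. It ranged from 0.071 to 0.252 for BAP in ago10-1, from -0.124 to 0.101 (without Col-0 BAP replicate 1) for BAP in Col-0, from -0.022 (without Col-0 BAP replicate 1) to 0.288 for ago10-1 against Col-0 after BAP and from -0.072 (without Col-0 mock replicate 1) to 0.11 without BAP. Over both genotypes it was 0.008 to 0.164 for BAP, over both treatments 0.008 to 0.154 for ago10-1 against Col-0, and for the interaction 0.013 (without ago10-1 BAP replicate 3) to 0.277.

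Without ATCG01130 the plastid share was 0.0211% in ago10-1 BAP, 0.0187% in Col-0 BAP, 0.0207% in ago10-1 mock and 0.0185% in Col-0 mock. The share of all members, with ATCG01130 included, was also taken with single libraries left out. This full share was then 0.0261% to 0.0311% in ago10-1 BAP and 0.0227% to 0.0285% in Col-0 BAP. In ago10-1 mock it was 0.0260% to 0.0295%, and in Col-0 mock 0.0226% to 0.0249%. With the replicate block the count of plastid genes called stayed at 0 in ago10-1 after BAP and between the genotypes after BAP, and with replicate 1 set against the others it stayed at 1 for BAP over both genotypes and at 0 in the other comparisons. The block changed no call of a plastid gene.

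The direction of several named values turned. Over single libraries left out, ATCG00040 ranged from -0.041 (without Col-0 mock replicate 1) to 0.729 for BAP in Col-0. For BAP in ago10-1, ATCG00170 ranged from -0.734 to 0.025 and atpE from -0.118 (without ago10-1 mock replicate 3) to 0.623. For ago10-1 against Col-0 after BAP, ATCG00730 ranged from -0.931 to 0.212, atpB from -0.179 to 0.18 and atpE from -0.021 (without Col-0 BAP replicate 1) to 0.801. In that comparison without the libraries labelled replicate 1, atpE was at -0.017 and atpB at 0.084. The cause was not tested. The share without ribosomal and transfer RNA genes and the share without the inverted repeat were not run, since most IDs could not be placed. Depth limits the 53 members below a mean of 10, whose median was 3 reads per library.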
